A study of Rattus norvegicus with 6 samples.

Results

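The regions described here are the 251 most peak-dense 1 Mb windows of the rat genome in CUT&Tag profiles of 3 histone lactylation marks. Chromosomes 1 to 20 were cut into 1 Mb windows, each peak was assigned to a window by its midpoint, and windows were ranked by the peaks of all 6 lists together. The dense windows were thus chosen by measured peak numbers, as the top 10% of the 2464 windows that held at least 1 peak, ties kept. They made up 10.2% of those windows and held 68058 of the 308787 peaks on these chromosomes, 22.0% (Wilson 95% interval 21.9 to 22.2). The remaining 2213 windows, called the other windows here, served as the comparison.

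The cells were wild-type tenocytes from rat tendon. The 6 groups were H3K9la, H4K8la and H4K16la in untreated cells (control) and the same marks after 20 mM lactate, with 1 library each. The treatment text of every sample mentions lactate, so groups follow the titles and the treatment entry of each sample. The sources used here do not give the duration of lactate exposure, nor whether the libraries came from separate cultures. The lists hold no RNA readout, so the tenocyte label could not be checked against marker genes. With 1 library a group, differences between libraries have no replicate check, and no p-value was computed. Intervals cover the counting error of peaks only. They take peaks as independent, which places shared between lists are not. PCR copies among the reads under a peak are not independent molecules either.

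Tenocytes are the resident fibroblast-like cells of tendon that lay down and maintain its collagen matrix. Lactylation attaches a lactyl group, which cells can make from lactate, to lysines of histones and other proteins. On histone tails it occupies lysines that can also be acetylated, and it has been linked to open, transcribed chromatin. H3K9 lies on the tail of histone H3, and H4K8 and H4K16 lie on that of histone H4. CUT&Tag uses an antibody to tether a transposase at marked chromatin, where it cuts out and tags fragments for sequencing. Because many cells are pooled, fewer cells with a mark at a place and less of the mark per cell cannot be told apart.

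All positions are in build rn7, counted from 1. A genome or annotation of that build was not used here, so windows are given by position, without gene names, exons, introns or sequence.

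The dense windows held from 243 to 347 peaks of the 6 lists, with a median of 265, against a median of 111 in the other windows. At the edge of the rule, 7 windows had exactly 243 peaks and are included, and 4 windows had 242 and are not. One of the former, on chromosome 10 from 63000001 to 64000000, held 46 H3K9la, 41 H4K8la and 37 H4K16la peaks in control. Just outside, the window on chromosome 6 from 129000001 to 130000000 held 47, 44 and 34. The rule thus cuts through a continuous range of windows. A place called in several libraries adds to the total once for each library. Merging overlapping peaks of all lists left 106 to 162 separate regions in a dense window (median 128), with a mean of 128.5 per dense window and 63.0 per other window.

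Dense windows occurred on each of the 20 chromosomes but at unequal rates. Chromosome 12 had the highest share, with 12 of its 47 windows (25.5%), followed by chromosome 10 with 26 of 108 (24.1%), chromosome 19 with 11 of 58 (19.0%) and chromosome 20 with 9 of 55 (16.4%). The lowest shares were on chromosome 2, with 12 of 247 windows (4.86%), and chromosome 13, with 6 of 107 (5.61%). Chromosomes 12, 19 and 20 are the shortest, but shares did not go with length alone. Chromosome 18 with 6 of 84 windows (7.14%), chromosome 16 with 7 of 85 (8.24%), chromosome 11 with 7 of 86 (8.14%) and chromosome 17 with 5 of 87 (5.75%) were below the 10.2% of all windows. Chromosome 1 held the most dense windows in number, 28 of 260. No X or Y window would have reached the threshold. The fullest X window had 162 peaks and the fullest Y window 29.

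Dense windows lay beside each other. Of the 251, 152 (60.6%) adjoined at least 1 other dense window. Among the 502 windows next to a dense one, counted from each side, 37.5% were dense themselves, against 10.2% of all windows. The 288 neighbours that were not dense had a median of 180 peaks, also above the median of 126 for all windows. There were 18 runs of 3 or more adjoining dense windows, which together took in 72 of them. The longest, with 7 windows, ran on chromosome 7 from 108000001 to 115000000 and held 1965 peaks. It had 373 H3K9la peaks in control and 289 with lactate, 396 and 269 for H4K8la, and 266 and 372 for H4K16la. A run of 6 on chromosome 10, from 101000001 to 107000000, held 1698 peaks. Runs of 5 lay on chromosome 1 from 200000001 to 205000000, chromosome 5 from 144000001 to 149000000, chromosome 14 from 76000001 to 81000000 and chromosome 19 from 48000001 to 53000000. Of the 80 windows at the chromosome ends (the first 2 Mb and the last 2 windows that held a peak), 5 were dense. That is 6.25% (Wilson 95% interval 2.70 to 13.8), which takes in the 10.2% of all windows.

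Within a dense window the peaks were spread out rather than stacked in a single cluster. In 250 of the 251 windows each of the 10 consecutive 100 kb bins held a peak, and the remaining window had peaks in 9. The fullest bin held a median of 14.9% of a window's peaks, and at most 22.1%. In the other windows, 1231 of 2213 had a peak in all 10 bins, and the fullest bin held a median of 22.2%. Neighbouring merged regions of a dense window lay a median of 5745 bp apart (quartiles 2628 and 9584 bp). The corresponding gap in the other windows was 7299 bp (3395 and 13984 bp). Fewer peaks make an uneven spread more likely, so the bin values of the other windows are given only beside those of the dense ones.

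The fullest window of all lay on chromosome 3 from 156000001 to 157000000, with 347 peaks. It held 86 H3K9la peaks in control and 49 with lactate, 69 and 39 for H4K8la, and 45 and 59 for H4K16la. Its strongest peak, from 156472815 to 156473825, belonged to H3K9la control and had a −log10 q of 35.6, q being the peak caller's p adjusted over the library. All 6 libraries had a peak there. The next window, on chromosome 7 from 8000001 to 9000000, held 344 peaks, with 68 and 52 for H3K9la, 67 and 41 for H4K8la, and 54 and 62 for H4K16la. In both windows the lactate list was the shorter for H3K9la and H4K8la and the longer for H4K16la.

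The window on chromosome 6 from 130000001 to 131000000 (335 peaks) had the highest count of H4K16la lactate peaks among all dense windows, 73 against 45 in control. Its strongest peak reached a −log10 q of 15.99, from 130201161 to 130201884 in H3K9la control, and no other library had a peak at that place. In contrast, the window on chromosome 20 from 3000001 to 4000000 (328 peaks) held the peak of highest −log10 q among the 12 fullest windows. That peak lay from 3541790 to 3542921 in H4K16la lactate, with a −log10 q of 74.8 and a fold of 11.3 over local background, and was found in all 6 libraries. A window of equal total on chromosome 19, from 33000001 to 34000000, had its strongest peak in the same library, from 33716157 to 33717175 (−log10 q 46.7, fold 9.11, all 6 libraries). Among these fullest windows, then, the −log10 q of the strongest peak differed widely. These peaks come from different libraries, and −log10 q also depends on depth. The values of 74.8 and 46.7 are both from H4K16la lactate, the list with the highest inferred background coverage (2.84 fragments per base). The part of depth in this spread was not tested.

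The window on chromosome 9 from 91000001 to 92000000 (315 peaks) had the highest H3K9la control count of all dense windows, 90 against 48 with lactate. H4K8la had 65 and 32 peaks there, the widest relative gap for this mark among the 12 fullest windows, and H4K16la 35 and 45. On chromosome 20 from 11000001 to 12000000 (326 peaks), H4K16la had 35 peaks in control and 63 with lactate, while H3K9la had 75 and 61 and H4K8la 59 and 33. Near equality was seen on chromosome 7 from 108000001 to 109000000 (320 peaks), with 52 and 51 H3K9la peaks, and on chromosome 2 from 174000001 to 175000000 (322 peaks), with 49 and 52 H4K16la peaks. The latter window also had the highest H4K8la lactate count of any dense window, 55 against 67 in control. The remaining windows of the 12 fullest were chromosome 5 from 145000001 to 146000000 (327 peaks), chromosome 19 from 39000001 to 40000000 (323) and chromosome 3 from 13000001 to 14000000 (318). In 10 of the 12, the strongest peak was found in all 6 libraries.

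Every library took part in the dense windows. H3K9la control had a median of 56 peaks per dense window (38 to 90), H4K8la control 54 (37 to 75) and H4K16la control 36 (23 to 54). With lactate the medians were 40 (25 to 61), 33 (19 to 55) and 50 (36 to 73) in the same order. The control and lactate ranges overlapped for each mark. No dense window lacked peaks of any library, and in the other windows the medians lay between 14 and 23.

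**Figure D1:**
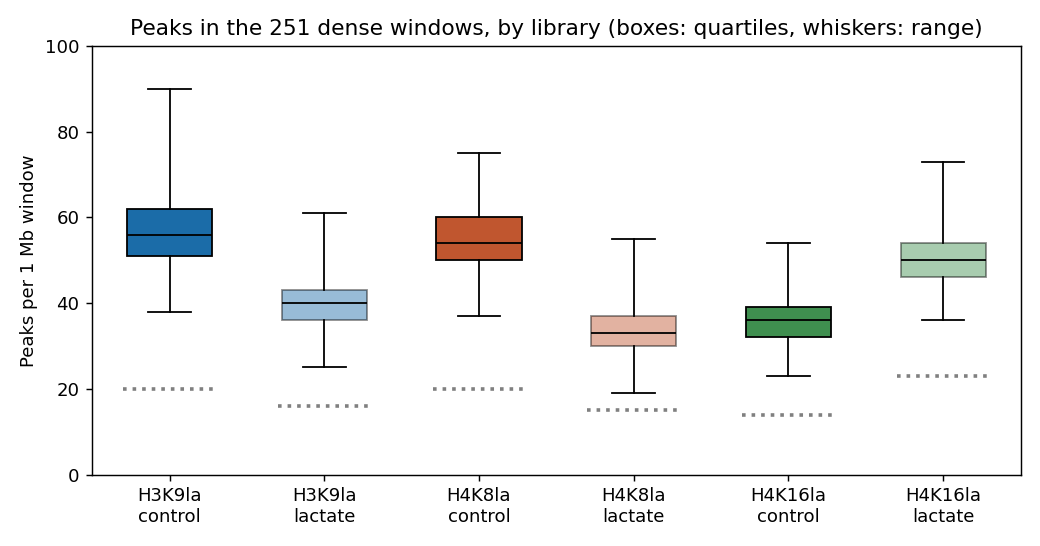
Peaks per 1 Mb window (vertical axis) in the 251 dense windows for each of the 6 libraries (horizontal axis). Boxes give the quartiles, the line in the box the median and the whiskers the full range, and the dotted line is the library's median in the other windows. Medians in the dense windows lie between 33 (H4K8la lactate) and 56 (H3K9la control).

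Across all 2464 windows, the counts of any pair of libraries rose together, with Spearman's rho from 0.91 to 0.95 (Pearson's r 0.89 to 0.94). Within the 251 dense windows rho ran from −0.11 to 0.34 (r −0.09 to 0.38). These are descriptions across windows. Each dense window was picked for its sum over the same lists, which narrows the range and lowers the second set of values. Windows also share each library's depth.

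The lactate list held a smaller share of its peaks in the dense windows than the control list, for each of the 3 marks. For H3K9la, 23.4% of the control peaks (Wilson 95% interval 23.0 to 23.7) and 21.9% of the lactate peaks (21.6 to 22.3) lay there. For H4K8la the shares were 23.1% (22.7 to 23.4) and 20.3% (20.0 to 20.7), and for H4K16la 22.5% (22.1 to 22.9) and 20.6% (20.3 to 20.9). The 2 intervals did not overlap for any mark, which is a description, since the same lists entered the choice of windows. H4K16la is the mark with the longer lactate list, and its lactate share was the lower one too.

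Seen as a ratio of lactate to control peak numbers, H3K9la and H4K8la were further down in the dense windows than elsewhere, and H4K16la less far up. H3K9la had 14232 peaks in control and 10030 with lactate in the dense windows, a log2 ratio of −0.50 (95% counting interval −0.54 to −0.47), against −0.39 (−0.41 to −0.37) in the other windows. H4K8la had 13823 and 8447, a log2 ratio of −0.71 (−0.75 to −0.67) against −0.48 (−0.50 to −0.46). H4K16la had 8940 and 12586, a log2 ratio of 0.49 (0.45 to 0.53) against 0.66 (0.64 to 0.68). The dense minus other difference on the log2 scale was −0.12 for H3K9la (−0.16 to −0.08). It was −0.23 for H4K8la (−0.27 to −0.19) and −0.16 for H4K16la (−0.21 to −0.12). None of the 3 counting intervals reached 0, but the same lists entered the choice of windows, so the intervals describe and do not test. Whether these differences exceed those between repeated cultures could not be tested with 1 library a group.

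The difference did not rest on a few chromosomes. It was below 0 on 19 of 20 chromosomes for H3K9la, with chromosome 11 (0.13) as the exception, and on 19 of 20 for H4K16la, with chromosome 17 (0.03) as the exception. For H4K8la it was below 0 on all 20, from −0.47 on chromosome 13 to −0.00014 on chromosome 8, where there was in effect no difference. The medians over chromosomes were −0.12, −0.24 and −0.15 for H3K9la, H4K8la and H4K16la.

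Since both lists of a mark entered the ranking, the windows were ranked again for each mark by the 4 lists of the other marks alone. The difference then came to −0.09 (H3K9la), −0.23 (H4K8la) and −0.16 (H4K16la), so each kept its direction. In these re-ranked windows, H3K9la had 22.9% of its control peaks (22.5 to 23.2) and 21.8% of its lactate peaks (21.4 to 22.1). H4K8la had 21.8% (21.4 to 22.1) and 19.2% (18.8 to 19.6), and H4K16la 21.8% (21.4 to 22.2) and 20.0% (19.6 to 20.3).

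Inferred depth moved in the same direction as the counts for H4K16la and H3K9la, and in the opposite direction for H4K8la. The genome-wide background coverage recovered from the lists was 2.17 fragments per base in H3K9la control and 1.88 with lactate, 1.32 and 1.55 for H4K8la, and 1.53 and 2.84 for H4K16la. When the summits of the deeper list of each pair were scaled to the background of the shallower and peaks of −log10 p of at least 4 were counted, the H4K16la log2 ratio turned to −0.38 in the dense windows and −0.29 in the others. The same threshold without scaling, added after the data were seen, left it at 0.47 (0.43 to 0.51) and 0.65. The ratios of all 3 marks also depended on peak strength. Among H4K16la peaks with a −log10 q of at least 10, at full depth, the dense windows held 663 in control and 696 with lactate, a log2 ratio of 0.07 (−0.08 to 0.22). The other windows held 1431 and 1899, a log2 ratio of 0.41 (0.31 to 0.51), so the excess remained there. At this cut H3K9la had −1.96 in the dense and −1.65 in the other windows, and H4K8la −1.97 and −1.57. The scaled ratios in dense and other windows were −0.40 and −0.26 for H3K9la and −0.80 and −0.55 for H4K8la. Without scaling, at the same −log10 p of at least 4, they were −0.50 and −0.38 for H3K9la and −0.70 and −0.45 for H4K8la. The dense minus other difference stayed below 0 for all 3 marks after scaling, with H3K9la at −0.14, H4K8la at −0.26 and H4K16la at −0.09. The scaling rests on an inferred background and cannot bring back places below the caller's threshold, so it is not a match of read depth.

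**Figure D2:**
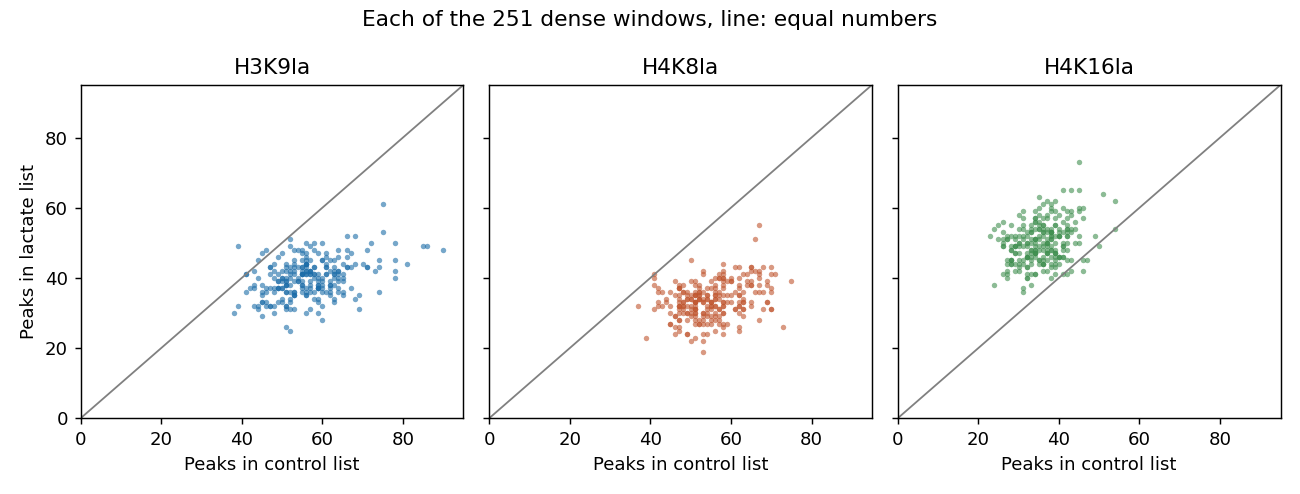
Peaks in the control list (horizontal axis) and in the lactate list (vertical axis) of each of the 251 dense windows, 1 panel per mark. The line marks equal numbers. Nearly all windows lie below it for H3K9la and H4K8la, and above it for H4K16la at full depth. The lists of each mark differ in length in the same direction over the other windows too.

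Window by window, the lactate list was the shorter in 245 of the 251 dense windows for H3K9la, equal in 2 and longer in 4. For H4K8la it was shorter in 250 and equal in 1, and for H4K16la it was longer in 243, equal in 2 and shorter in 6. The same count is not given for the other windows, and the lists differ in length over all windows. For H3K9la they held 60891 peaks in control and 45729 with lactate, for H4K8la 59940 and 41517, and for H4K16la 39670 and 61040. These counts are thus not a trait of the dense windows alone. A stricter count took windows with at least 10 peaks of a mark's 2 lists and a ratio of 1.5-fold or more. By it, H3K9la had fewer peaks with lactate in 94 dense windows (37.5%), against 31.4% of all 1912 windows tested, and more in none, against 3.56%. H4K8la had fewer in 177 (70.5%), against 44.7% of 2019, and more in none, against 4.51%. H4K16la had more with lactate in 95 (37.8%), against 58.2% of 1940, and fewer in none, against 0.567%. Thus the H4K8la share stood furthest above its background, the H3K9la share was close to it, and the H4K16la share was below it. The background takes in windows with as few as 10 peaks of the 2 lists, where counting error is larger than in the dense windows. At full depth the median log2 ratio was −0.50 in the dense windows against −0.40 in all tested windows for H3K9la. It was −0.71 against −0.52 for H4K8la, and 0.50 against 0.65 for H4K16la.

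The spread of this ratio over the dense windows is given as a description. The SD of the log2 ratio over the 251 windows was 0.24 for H3K9la and H4K16la and 0.25 for H4K8la. Counting error of independent peaks alone would give 0.30, 0.32 and 0.32. That reference takes the 2 lists of a mark as independent, but many of their dense-window peaks overlap. It therefore cannot tell whether dense windows differ from each other beyond counting error. The windows at either end of the order are given as values only. H3K9la was lowest on chromosome 7 from 69000001 to 70000000, with 69 peaks in control and 31 with lactate (log2 ratio −1.15, counting interval −1.77 to −0.54). It was highest on chromosome 4 from 116000001 to 117000000, with 39 and 49 (0.33, −0.28 to 0.94).

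For H4K8la the lowest ratios were both on chromosome 18, from 54000001 to 55000000 with 73 and 26 peaks (−1.49, −2.14 to −0.84) and from 59000001 to 60000000 with 53 and 19 (−1.48, −2.24 to −0.72). The highest was on chromosome 16 from 17000001 to 18000000, with 41 peaks in each list. That window was also among the 3 highest for H3K9la, with 46 and 48, and so was a window on chromosome 11 from 79000001 to 80000000, with 45 and 47 H3K9la peaks and 41 and 38 H4K8la peaks. H4K16la was highest on chromosome 4 from 150000001 to 151000000, with 23 peaks in control and 52 with lactate (1.18, 0.47 to 1.88), and lowest on chromosome 8 from 109000001 to 110000000, with 46 and 42 (−0.13, −0.73 to 0.47). The window on chromosome 19 from 23000001 to 24000000 stood near the lower end for both H3K9la (60 and 28) and H4K16la (47 and 45).

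The ratio changed with peak density in all 3 marks, for H3K9la and H4K8la towards higher values in sparser windows. Windows were ordered by the peaks of the other marks and cut into 10 groups of like size, numbered from the densest. The H3K9la log2 ratio went from −0.48 in group 1 to −0.32 in group 6 and −0.10 in group 8. H4K8la went from −0.71 to −0.41 and −0.12 in the same groups. H4K16la went from 0.49 to 0.72 and 0.73, with its highest value in group 7 (0.79). In groups 9 and 10 the H3K9la and H4K8la ratios were above 0, at 0.27 and 1.11 for H3K9la and 0.50 and 0.59 for H4K8la. For H4K16la they were 0.56 and 0.09, so its sparsest group lay below its densest. Group 10 rests on few peaks, with 67 in control and 145 with lactate for H3K9la. The densest group did not stand apart from the next. In group 2 H3K9la had a ratio of −0.48, H4K8la of −0.64 and H4K16la of 0.56.

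**Figure D3:**
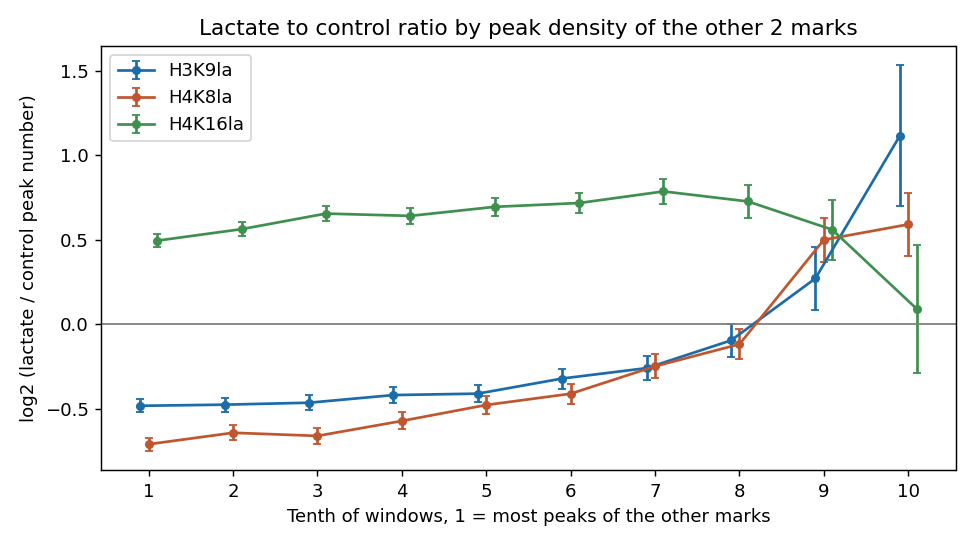
The log2 ratio of lactate to control peak numbers (vertical axis) in 10 groups of the 2464 windows, ordered by the peaks of the other 2 marks from most (1) to fewest (10). Points are pooled over the windows of a group, and bars are 95% counting intervals. H3K9la and H4K8la lie lowest in group 1, at −0.48 and −0.71.

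The marks shared the dense windows in nearly the same proportions as the other windows. In control, 38.5% of the dense-window peaks belonged to H3K9la (38.0 to 39.0), 37.4% to H4K8la (36.9 to 37.9) and 24.2% to H4K16la (23.7 to 24.6). In the other windows these shares were 37.8%, 37.3% and 24.9%. With lactate, H3K9la took 32.3% of the dense-window peaks (31.8 to 32.8) against 30.5% elsewhere (30.2 to 30.7). H4K8la took 27.2% (26.7 to 27.7) against 28.2% (28.0 to 28.5), and H4K16la 40.5% (40.0 to 41.1) against 41.3% (41.1 to 41.6). Intervals of dense and other windows overlapped for H3K9la and H4K8la in control and, barely, for H4K16la with lactate. The widest gap between the intervals was that of H3K9la with lactate.

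Peaks of the dense windows had slightly lower q (higher −log10 q) and were slightly wider in all 6 libraries. The median −log10 q was higher there by 0.43 in the median library (0.21 to 0.78 across libraries). The gap was widest for H4K8la control, 4.21 against 3.43, and narrowest for H3K9la lactate, 3.47 against 3.25. Peaks with a −log10 q of at least 10 made up 10.6% (10.1 to 11.2) of the H4K8la control peaks in the dense windows against 6.42% (6.20 to 6.65) elsewhere. In H3K9la lactate they made up 3.06% (2.74 to 3.42) against 2.26% (2.11 to 2.42), and the share was higher in the dense windows for every library. Among peaks of at least 10 alone, the difference in median −log10 q was 0.15.

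Median width was 538 bp in the dense windows and 484 bp elsewhere for H4K8la control, and 524 and 493 bp for H3K9la control. For H4K8la lactate it was 504 and 470 bp, and the gap was narrowest for H4K16la lactate, with 460 and 446 bp. The log2 ratio of median widths was 0.081 in the median library (0.045 to 0.15). It came to 0.024 among peaks with a −log10 q of at least 5 and turned to −0.039 among those of at least 10, so strong peaks were not wider in the dense windows. Peaks of 1.5 kb or more made up 3.71% (3.41 to 4.04) of H4K8la control peaks in the dense windows against 1.80% (1.68 to 1.93) elsewhere. For H3K9la control these shares were 1.34% (1.17 to 1.54) and 0.827% (0.749 to 0.914). In H4K16la control they were 0.190% (0.119 to 0.304) and 0.218% (0.172 to 0.277), with overlapping intervals.

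The fold over local background, in contrast, was lower in the dense windows for all 6 libraries. The authors' fold per peak is the pileup at the summit over the coverage expected there from the surroundings. Its median was 3.28 against 3.47 for H3K9la control, 3.77 against 3.88 for H4K8la control and 3.77 against 3.95 for H4K16la control. With lactate it was 3.52 against 3.74, 3.79 against 3.90, and 3.30 against 3.41 in the same order. Summit pileup and local background were not measured but recovered from the fold and −log10 p of the same peaks. A lower fold with a higher −log10 p gives higher values of both, so they restate those results. The recovered pileup was higher in the dense windows. Its median was 13.7 times the genome-wide background against 9.11 for H4K8la control, and 7.04 against 5.98 for H4K16la lactate. The local background was higher as well. Its median was 2.86 times the genome-wide value in the dense windows against 1.64 elsewhere for H4K8la control, and 1.87 against 1.43 for H4K16la lactate. A local background above the genome-wide one was found for 96.4% to 98.1% of dense-window peaks and for 78.0% to 87.3% of the others, across libraries. The recovered background is not independent of the q and the fold of these peaks. Its part in their q, width and fold was not tested.

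**Figure D4:**
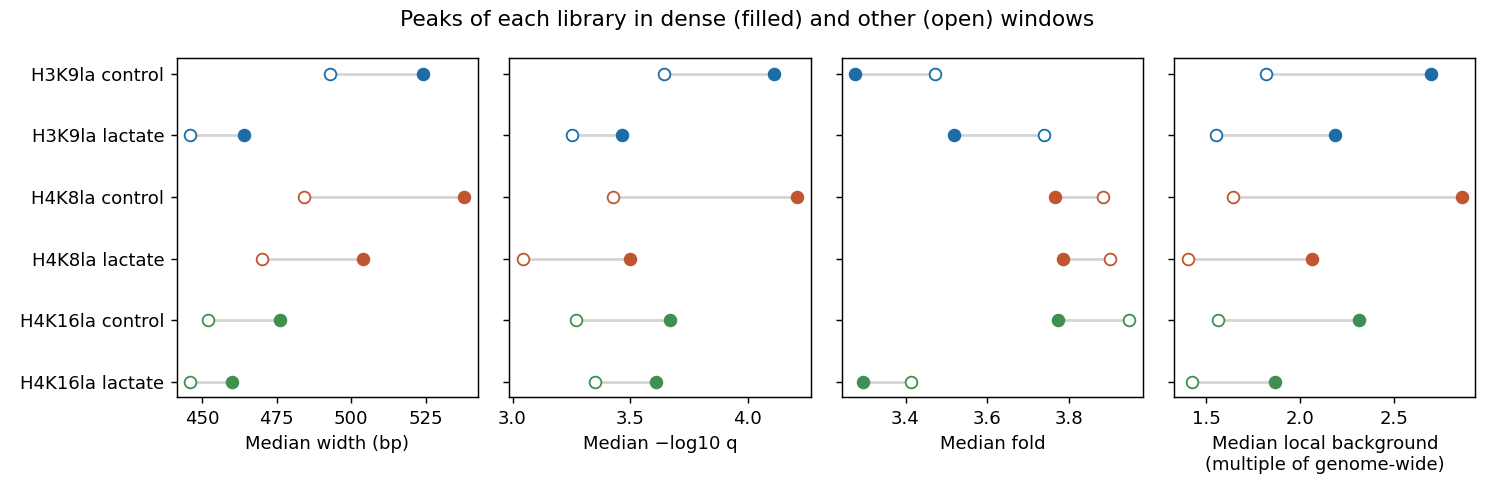
Median peak width in bp, median −log10 q, median fold over local background and median local background as a multiple of the genome-wide one (horizontal axes, none starting at 0) for each library (vertical axis). Filled points are dense windows and open points other windows. Width, −log10 q and local background are higher and the fold is lower in the dense windows for all 6 libraries. The local background was recovered from the fold and −log10 p of the same peaks.

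Calls in the dense windows were more often shared between conditions. Of the H4K8la lactate peaks there, 60.0% (58.9 to 61.0) overlapped a control peak of the same mark by at least 1 bp, against 38.9% (38.4 to 39.5) in the other windows. For H3K9la lactate the shares were 56.7% (55.8 to 57.7) and 43.2% (42.7 to 43.7), and for H4K16la control 50.1% (49.1 to 51.2) and 40.7% (40.2 to 41.3). In the longer list of each mark the shares were lower. They were 39.8% and 32.9% for H3K9la control, 36.4% and 27.9% for H4K8la control, and 35.7% and 25.9% for H4K16la lactate. Peaks of the opposite list covered 1.91% to 3.60% of the bases of the dense windows and 0.708% to 1.21% of those of the others, so an overlap by position alone is more frequent in the dense windows. Both lists of a mark also entered the ranking, which favours windows whose places were called in both conditions. In windows ranked by the other marks' lists, an alternative chosen after the data were seen, the shares were 59.4% (58.3 to 60.5) and 39.4% (38.8 to 39.9) for H4K8la lactate. They were 56.3% (55.3 to 57.3) and 43.3% (42.8 to 43.8) for H3K9la lactate, and 49.7% (48.6 to 50.7) and 40.9% (40.4 to 41.5) for H4K16la control.

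The overlap was also counted among peaks of like strength. The range used limits the list counted, not the peaks it overlaps, and the part of peak strength was not tested. Among peaks with a −log10 q from 3 to 4, a range chosen after the data were seen, the H4K8la lactate shares were 57.8% (55.5 to 60.1) and 36.3% (35.2 to 37.4). The H3K9la lactate shares were 53.6% (51.5 to 55.6) and 41.0% (40.0 to 42.1), and the H4K16la lactate shares 26.9% (25.3 to 28.5) and 19.5% (18.8 to 20.2). For H4K8la control, however, the gap shrank to 20.2% (18.7 to 21.8) against 18.9% (18.1 to 19.8), with overlapping intervals.

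**Figure D5:**
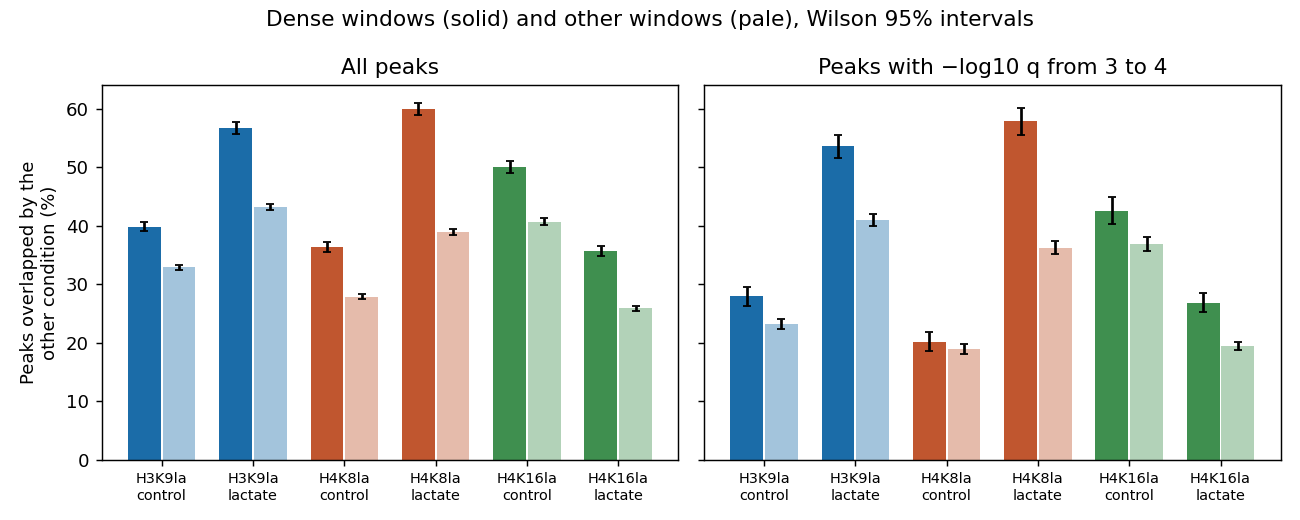
Share of each library's peaks that overlap a peak of the other condition of the same mark (vertical axis, percent) in dense windows (solid bars) and other windows (pale bars), with Wilson 95% intervals. The left panel holds all peaks and the right panel peaks with a −log10 q from 3 to 4. The H4K8la lactate bars stand furthest apart, at 60.0% and 38.9% in the left panel.

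Places called in many libraries made up a larger share of the dense windows, which the rule itself favours, since such a place adds to the total once for each library. Of the 32243 merged regions of the dense windows, 2057 had a peak in all 6 libraries, 6.38% (6.12 to 6.65), against 3.69% (3.59 to 3.79) of the 139509 regions elsewhere. Per window, these were means of 8.20 and 2.32. A dense window held from 0 to 20 of them, with a median of 8, so even some dense windows had no place called in every library. Regions found in 1 library only made up 56.2% (55.6 to 56.7) in the dense windows and 68.5% (68.3 to 68.8) elsewhere. With windows ranked by merged regions instead, so that each place counted once, the gaps were smaller. This ranking was chosen after the data were seen and gave 261 windows, 187 of them among the 251. There, 5.02% of regions (4.79 to 5.25) had a peak in all 6 libraries, against 3.99% (3.89 to 4.09) elsewhere, and 59.2% (58.7 to 59.7) were found in 1 library only, against 67.9% (67.7 to 68.2). All 3 marks were called together in control at 12.7% (12.4 to 13.1) of the dense-window regions and with lactate at 9.19% (8.88 to 9.51), against 7.31% and 5.67% elsewhere.

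Regions where a mark was called in 1 condition only leaned towards control in the dense windows for H4K8la and H3K9la. For H4K8la, 26.5% of the regions (26.0 to 27.0) had a control peak and no lactate peak there, and 10.1% (9.75 to 10.4) the reverse. Elsewhere these shares were 23.4% (23.1 to 23.6) and 14.2% (14.0 to 14.3). H3K9la showed 25.7% (25.2 to 26.1) and 12.9% (12.5 to 13.3) in the dense windows, against 21.9% (21.7 to 22.1) and 14.2% (14.0 to 14.4). For H4K16la the lactate-only share was the larger, 24.5% (24.0 to 25.0) against 13.3% (13.0 to 13.7) for control only, and elsewhere 25.3% (25.1 to 25.6) against 12.7% (12.5 to 12.9). These shares carry the unequal depth and length of the lists.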

How the data were processed

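The files are 6 narrow peak lists, deposited 1 per library. The submitters' processing notes name MACS2, deepTools, Bowtie2, cutadapt and FastQC, and build rn7. The sources used here do not give their versions or settings, or whether the IgG named in the labels' protocols served as a peak calling control. The deposited columns hold the authors' fold (a ratio to local background), −log10 p, −log10 q and a score that restates −log10 q. Medians of fold and −log10 q were compared within a list only. The cuts on −log10 q or −log10 p, the strongest peak of a window and the inferred backgrounds set these columns side by side between lists. Those lists are of unequal depth, on which −log10 q also depends. The dense windows and all measures were chosen with earlier results of these data known.

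Windows, peaks and lists were analysed with Python 3.11.15, scipy 1.17.1, pandas 2.3.3 and numpy 2.4.6, and drawn with matplotlib 3.10.9. The functions were tested on simulated data. Pileup and local background were recovered from fold and −log10 p on the assumption that fold is (pileup + 1) over (background + 1) and p a Poisson tail. A whole-number pileup within 0.002 of −log10 p was found for every peak. The most frequent local background of a list was taken as its genome-wide one. This reading is inferred from the values. The lists hold no read totals. Named windows are the 12 fullest, windows at the threshold, runs of 3 or more, and the extremes of each mark's ratio. No test between conditions was made. X and Y peaks entered an alternative only.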

Additional observations from a re-analysis of the deposited data

Results flagged for a closer look

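The lactate to control ratio of peak numbers in the dense windows went in opposite directions between marks, with log2 values below 0 for H3K9la (−0.505) and H4K8la (−0.711) and above 0 for H4K16la (0.493). Each value comes from 1 library per condition, and the difference between marks was not tested. When the deeper list was scaled to the inferred background of the shallower, with a −log10 p of at least 4, the H4K16la value was −0.38.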

How the results depend on the processing

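Across 14 alternatives per mark, the dense minus other difference of the log2 ratio stayed below 0, from −0.32 to −0.09 for H3K9la, −0.47 to −0.21 for H4K8la and −0.34 to −0.07 for H4K16la. Values beyond the counting interval of the main value came with a −log10 q of at least 10 (−0.315 for H3K9la, −0.397 for H4K8la, −0.338 for H4K16la) and of at least 5 (−0.258 for H4K16la). The same held for covered bases (−0.296 for H4K8la) and for the list scaled in depth (−0.0925 for H4K16la). With equal numbers of the strongest peaks per list, added after the data were seen like the −log10 p threshold without scaling, H3K9la had −0.227, H4K8la −0.468 and H4K16la −0.0722. The difference in median −log10 q was 0.224 and 0.148, and the log2 ratio of widths 0.0243 and −0.0392, among peaks of at least 5 and 10, where fewer peaks enter. The cause of the other changes was not tested. The window grid, size and share, equal weights, X and Y, and ranking without the measured lists left these 5 results within their error. Peak numbers carry the depth of each library, which is known only as an inferred background. H4K8la lactate had the higher background of its pair (1.55 against 1.32) and the shorter list. The part of depth in the lengths of the lists was not tested. No genome of build rn7 was used here, so base composition, mappability and genes of the windows were not examined.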
